A study of Mus musculus with 3 samples.

Results

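Kupffer cells are the resident macrophages of the liver, and 1133 of them were found among 36386 CD45+ cells sorted from liver tumours. They were chosen cell by cell from raw counts of RNA molecules (unique molecular identifiers, UMIs): at least 2 UMIs of Cd5l, Clec4f, Vsig4 and Timd4 together and at least 2 of the complement genes C1qa, C1qb and C1qc. They also had no UMI of Cd3d, Cd3e, Cd3g, Cd79a or Siglech, which mark T cells, B cells and plasmacytoid dendritic cells. The neutrophil genes S100a8 and S100a9 held under 1% of their UMIs. The choice rests on measured RNA, so the levels of these genes describe the cells and support nothing. There were 376 such cells among 14257 in the library treated with DU101, 249 among 11710 in the library treated with DU102 and 508 among 10419 in the control library.

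All 3 libraries came from C57BL6 mice named MYC-ON, aged 18 weeks, and each group has 1 library. Live CD45+ cells, which are white blood cells, were sorted from dissociated tumours and counted by droplet sequencing of the 3′ ends of transcripts. The labels do not say what kind of agent DU101 or DU102 is, at which dose or for how long it was given, or how many mice of which sex went into a library. What the control mice received is not in the labels either, although the control's deposited data carry the name DMSO, a common solvent for drugs. Nor do they name the promoter or cell type that drives MYC, which by the name of the mice is on in all 3 groups. With 1 library per group no difference below has a replicate check, no test was made, and every 95% interval covers counting error only.

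Kupffer cells sit in the liver sinusoids, where scavenger, complement and Fc receptors take bacteria, dying cells and aged red cells out of the blood, and where iron and lipid from those cells are recycled. Those seeded in the embryo carry Timd4 and Clec4f and depend on transcription factors such as Nr1h3 and Id3, and monocytes can replace them after injury. Like other macrophages they answer type I interferon with antiviral genes and interferon gamma with antigen presentation and T cell-drawing chemokines.

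The 4 genes of the choice were unequal. Cd5l, a secreted scavenger protein, was the one found in 295 DU101, 185 DU102 and 337 control cells with no UMI of the other 3. Clec4f, a galactose-binding lectin, Vsig4, a receptor for complement-coated particles, or Timd4, a receptor for dying cells, was found in 81 DU101 Kupffer cells (21.5%), 64 DU102 ones (25.7%) and 171 control ones (33.7%). All 4 genes were found together in 8 DU101, 6 DU102 and 29 control cells. Most of the cells described here are thus Kupffer cells by Cd5l and C1q RNA.

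The name was checked on markers that the choice did not use. With every cell thinned to 2000 UMIs, Fcna, a ficolin lectin of Kupffer cells, was found in 30.3% of 165 DU101 Kupffer cells (95% interval 23.4 to 37.9), 24.3% of 107 in DU102 (16.5 to 33.5) and 35.1% of 282 in control (29.5 to 41.0). In C1q macrophages without any UMI of the 4 genes it was found in 1.42% of DU101, 0.856% of DU102 and 1.63% of control cells, and in 0.651% of DU101, 0.146% of DU102 and 0.592% of control T cells. At 5000 UMIs, which leaves 79 DU101, 45 DU102 and 132 control cells, Fcna was in 29.1% of DU101, 22.2% of DU102 and 34.8% of control Kupffer cells. Slc40a1, the iron exporter ferroportin, was at 2000 UMIs found in 58.8% of DU101, 70.1% of DU102 and 70.9% of control Kupffer cells, against 5.69% of DU101, 5.65% of DU102 and 10.5% of control C1q macrophages. Both markers were thus found in far more Kupffer cells than C1q macrophages. Cd5l itself was found in 2.55% of DU101, 1.79% of DU102 and 3.01% of control T cells at that depth. Il18bp, which binds interleukin 18, was found in 57.0% of DU101, 58.9% of DU102 and 61.3% of control Kupffer cells and in 5.89% of DU101, 7.36% of DU102 and 7.05% of control C1q macrophages. The monocyte receptor Ccr2 was lower in Kupffer cells than in C1q macrophages, at 0.285 times in DU101, 0.247 times in DU102 and 0.410 times in control. Before thinning, the median depth was 1717 UMIs in DU101, 1687 in DU102 and 2320.5 in control for Kupffer cells, and 4260.5 in DU101, 4974.5 in DU102 and 6163 in control for T cells.

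Cells at the threshold were less clear. Fcna was found in 14.8% of DU101, 21.1% of DU102 and 34.4% of control cells with exactly 2 UMIs of the 4 genes, and in 8.03% of DU101, 6.06% of DU102 and 10.5% of control C1q cells with 1 UMI, which were left out. Just inside the threshold were 61 DU101, 38 DU102 and 61 control cells, and just outside it 137 DU101, 99 DU102 and 171 control cells.

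The libraries held 12639 to 15686 barcodes and 91013198 to 106604935 UMIs, with at least 500 UMIs in every barcode. Between 37 and 57 barcodes were shared by each pair of libraries, and 0 of them were Kupffer cells in both libraries of the pair. The libraries also differed in sex-linked RNA. Among Kupffer cells, Xist without Y-linked RNA was found in 0 DU101, 0 DU102 and 78 control cells, and Y-linked RNA without Xist in 96 DU101, 69 DU102 and 47 control cells. Treatment and sex therefore cannot be told apart over whole libraries, and cells with Y-linked RNA alone give the nearest comparison within a sex. That comparison leans to deep cells. Kupffer cells with Y-linked RNA alone held a median of 5090 UMIs in DU101, 6125 in DU102 and 6771 in control. Those with neither kind of RNA held 1369.5 in DU101, 1365.5 in DU102 and 1811 in control.

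Kupffer cells made up a smaller share of the sorted cells in both treated libraries. The share was 2.64% in DU101 (2.38 to 2.91), 2.13% in DU102 (1.87 to 2.40) and 4.88% in control (4.47 to 5.31). That is 0.541 times the control share in DU101 (0.472 to 0.619) and 0.436 times in DU102 (0.373 to 0.509). The C1q macrophages without Kupffer markers were also a smaller share, at 8.32% in DU101, 6.21% in DU102 and 12.2% in control. Within C1q cells the Kupffer share was therefore closer between libraries, at 22.1% in DU101, 23.2% in DU102 and 26.1% in control, which is 0.849 times control in DU101 (0.741 to 0.972) and 0.889 times in DU102 (0.761 to 1.04). Among cells with Y-linked RNA alone the share was 1.42% in DU101 (1.15 to 1.73), 1.12% in DU102 (0.869 to 1.41) and 2.53% in control (1.86 to 3.34). In control it was 1.41% of cells with Xist alone (1.11 to 1.75). Most Kupffer cells held neither kind of RNA, and they made up 3.75% of such cells in DU101, 3.26% in DU102 and 14.0% in control. With every sorted cell thinned to 1000 UMIs before the choice it was 1.58% in DU101, 1.23% in DU102 and 3.13% in control. Between the treated libraries the share was 1.24 times as high in DU101 as in DU102 (1.05 to 1.46). That order turned round when Kupffer cells with a UMI of any of 8 genes of other lineages were removed. The other kept cells were not filtered in this way, so the total stayed all kept cells. The share was then 1.23% in DU101, 1.76% in DU102 and 3.85% in control. The filter left 176 of 376 DU101, 206 of 249 DU102 and 401 of 508 control Kupffer cells. Per 1000000 UMIs of Kupffer cells, 6 plasma cell markers summed to 898 in DU101, 200 in DU102 and 207 in control. In T cells they summed to 776 in DU101, 120 in DU102 and 125 in control. The part of plasma cell RNA in the changed order was not tested.

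**Figure D1:**
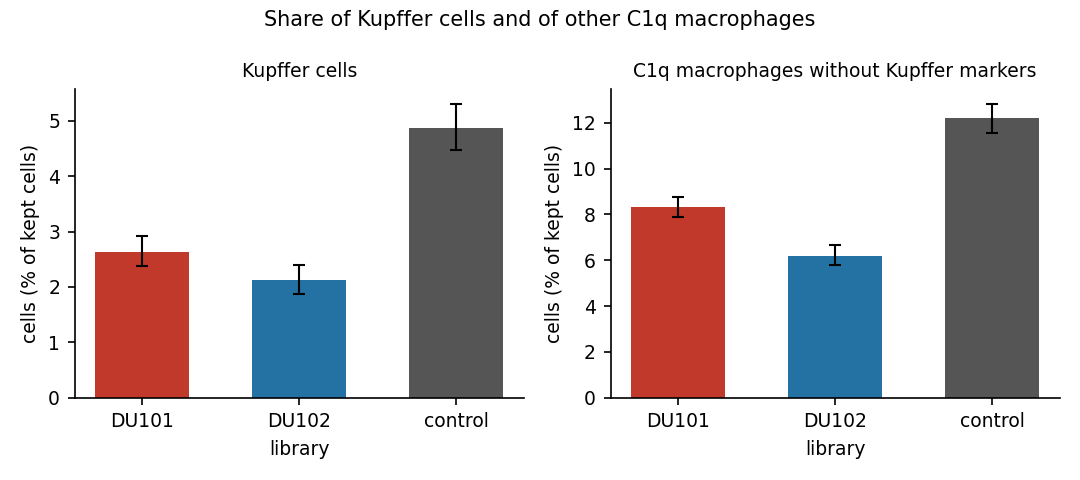
Share of sorted cells that were Kupffer cells (left) and C1q macrophages without Kupffer markers (right), in percent of kept cells, for the DU101, DU102 and control libraries; bars are single libraries and whiskers exact 95% binomial intervals for counting error. Both treated libraries stand below control in both panels, at 2.64% and 2.13% against 4.88% for Kupffer cells.

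The Kupffer cells carried little RNA and little of it was nuclear. Under 5000 UMIs were found in 79.0% of DU101, 81.9% of DU102 and 74.0% of control Kupffer cells. Malat1, a long noncoding RNA kept in the nucleus, held a median of 0.205% of UMIs in DU101, 0.157% in DU102 and 0.0941% in control Kupffer cells. Among cells under 5000 UMIs, Malat1 was below 0.5% of UMIs in 86.5% of DU101, 92.2% of DU102 and 94.7% of control Kupffer cells, and in 0.815% of DU101, 1.75% of DU102 and 2.05% of control T cells. C1q macrophages without Kupffer markers lay between, with 23.3% of DU101, 47.0% of DU102 and 54.3% of control cells below 0.5% at that depth. CPM are counts scaled to a total of 1000000 UMIs over the cells named, within each library. Neat1, another nuclear RNA, was at 17.1 CPM in DU101, 30.5 in DU102 and 37.9 in control Kupffer cells below 0.5% Malat1. In those above, Neat1 was at 251 CPM in DU101, 327 in DU102 and 376 in control.

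The 2 kinds of Kupffer cell by Malat1 also differed in what else they carried. Those below 0.5%, a limit set after the values were seen, numbered 264 in DU101, 191 in DU102 and 394 in control. They were the ones rich in Kupffer RNA: Fcna was at 434 CPM in DU101, 405 in DU102 and 556 in control, against 145 CPM in DU101, 118 in DU102 and 123 in control in the cells with more Malat1. Il18bp was at 1016 CPM in DU101, 948 in DU102 and 886 in control, against 245 in DU101, 291 in DU102 and 255 in control. Cells with more Malat1 were deeper, with a median of 6614.5 UMIs in DU101, 9194 in DU102 and 8541 in control, and held 65.0% of Kupffer cell UMIs in DU101, 60.8% in DU102 and 57.1% in control. Ccr2 was found in 25% of these in DU101, 20.7% in DU102 and 35.1% in control, and in 2.65% of the cells with little Malat1 in DU101, 3.14% in DU102 and 2.03% in control. The summed markers of liver endothelium were at 237 CPM in DU101, 123 in DU102 and 1288 in control among cells with more Malat1, and at 118 CPM in DU101, 252 in DU102 and 345 in control among those with little. Sums over all Kupffer cells therefore weight the deep cells, and the main results below are given for all cells and for cells under 5000 UMIs. The part of depth, of low nuclear RNA and of RNA from other cells in the results was not tested.

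**Figure D2:**
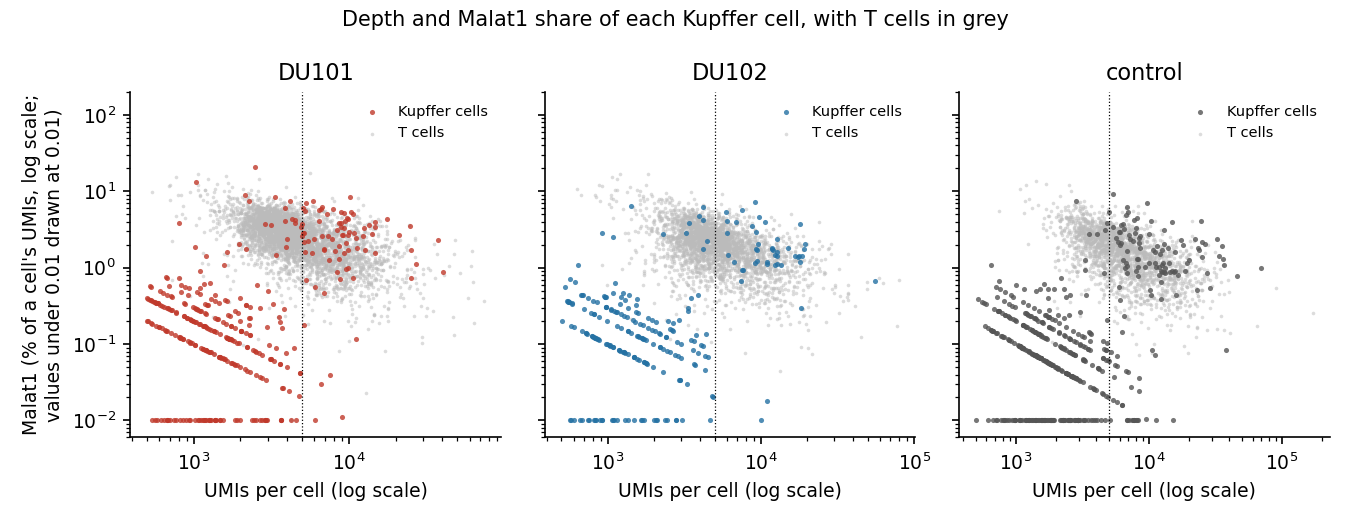
UMIs per cell (horizontal, log scale) against the percent of UMIs from Malat1 (vertical, log scale) for each Kupffer cell of DU101, DU102 and control, in colour, with T cells of the same library in grey; the dotted line marks 5000 UMIs. Most Kupffer cells lie at low depth and low Malat1, below the T cells, and a smaller group lies among the T cells.

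The 2 comparisons with control share the control library, so their values stand side by side and were not counted together. A gene was called higher or lower when its ratio was at least 1.5-fold either way, its interval left out 1, and both libraries together held at least 30 UMIs of it. In all Kupffer cells 4.48% of 8348 genes were called higher and 7.55% lower in DU101 over control. In DU102 over control 3.76% of 8102 were called higher and 6.37% lower. Among cells under 5000 UMIs the shares were 5.79% higher and 3.59% lower of 4714 genes for DU101, and 4.44% higher and 2.66% lower of 4321 for DU102. Where a gene list below gives no share over all genes, these are the shares to set beside its counts.

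Over all cells, the median Kupffer identity gene outside the choice was close to control in both treated libraries. Of 27 measured in all cells, 1 was called higher and 5 lower in DU101, and 3 higher and 3 lower in DU102, with a median log2 ratio of −0.12 and 0.01. Over all genes 4.48% were higher and 7.55% lower in DU101, and 3.76% higher and 6.37% lower in DU102. Under 5000 UMIs, 0 of 25 were called higher and 7 lower in DU101, and 0 higher and 2 lower in DU102. Over all genes 3.59% were lower in DU101 and 2.66% in DU102 at that depth. The list medians there were −0.26 in DU101 and −0.11 in DU102, beside 0.06 and 0.02 over all genes. At that depth a larger share of these genes than of all genes was thus lower in DU101. With the control limited to its Y-linked, Xist-free cells, the medians were 0.35 in DU101 and 0.51 in DU102. That sets deeper control cells against all treated Kupffer cells. With such cells alone in every library, a choice made after seeing the data, they were −0.16 in DU101 and 0.23 in DU102. Fcna was at 246 CPM in DU101, 230 in DU102 and 309 in control, ratios of 0.797 and 0.745 that were not called. Slc40a1 was at 726 CPM in DU101, 826 in DU102 and 897 in control, and Il18bp at 515 CPM in DU101, 548 in DU102 and 526 in control. Nr1h3, the liver X receptor that Kupffer cells depend on, was at 243 CPM in DU101, 179 in DU102 and 159 in control, which is 1.53-fold higher in DU101 (1.32 to 1.78). Id3, a regulator of Kupffer cell development, was at 203 CPM in DU101, 277 in DU102 and 161 in control, which is 1.72-fold higher in DU102 (1.46 to 2.02). Under 5000 UMIs those ratios were 1.48 and 1.41, below the size needed for a call.

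Marco, a scavenger receptor for bacteria, was called lower in DU102 over all cells and under 5000 UMIs, but not in every class of cells. It was at 116 CPM in DU101, 71.6 in DU102 and 111 in control. The DU102 value rests on 66 UMIs in 21 cells. The DU102 ratio was 0.647 over all cells (0.487 to 0.850) and 0.550 under 5000 UMIs (0.403 to 0.739). Under 1500 UMIs Marco was at 405 CPM in DU102 and 411 in control. From 1500 to under 5000 UMIs it was at 55.5 CPM in DU102 and 255 in control. Below 0.5% Malat1 it was at 158 CPM in DU102 and 208 in control, which was not called. Kcna2, a potassium channel gene, was lower in DU101, at 30.7 CPM against 56.4 in DU102 and 59.1 in control, with a DU101 ratio of 0.519 over all cells and 0.446 under 5000 UMIs. Ccl24, a chemokine for eosinophils, was at 24.7 CPM in DU101, 5.43 in DU102 and 27.5 in control, and the DU102 value rests on 5 UMIs. Cdh5, a cadherin of endothelium that Kupffer cells also express, was lower in both, at 37.4 CPM in DU101, 42.3 in DU102 and 99.9 in control. Under 5000 UMIs its ratio was 0.369 in DU101 and 0.926 in DU102, and the summed endothelial markers named above moved with it over all cells. Of the genes of the choice, as a description, Cd5l was at 2829.8 CPM in DU101, 2741.9 in DU102 and 2439 in control, Clec4f at 205 CPM in DU101, 288 in DU102 and 205 in control, Vsig4 at 160 CPM in DU101, 213 in DU102 and 192 in control, and Timd4 at 38.9 CPM in DU101, 20.6 in DU102 and 46.6 in control.

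**Figure D3:**
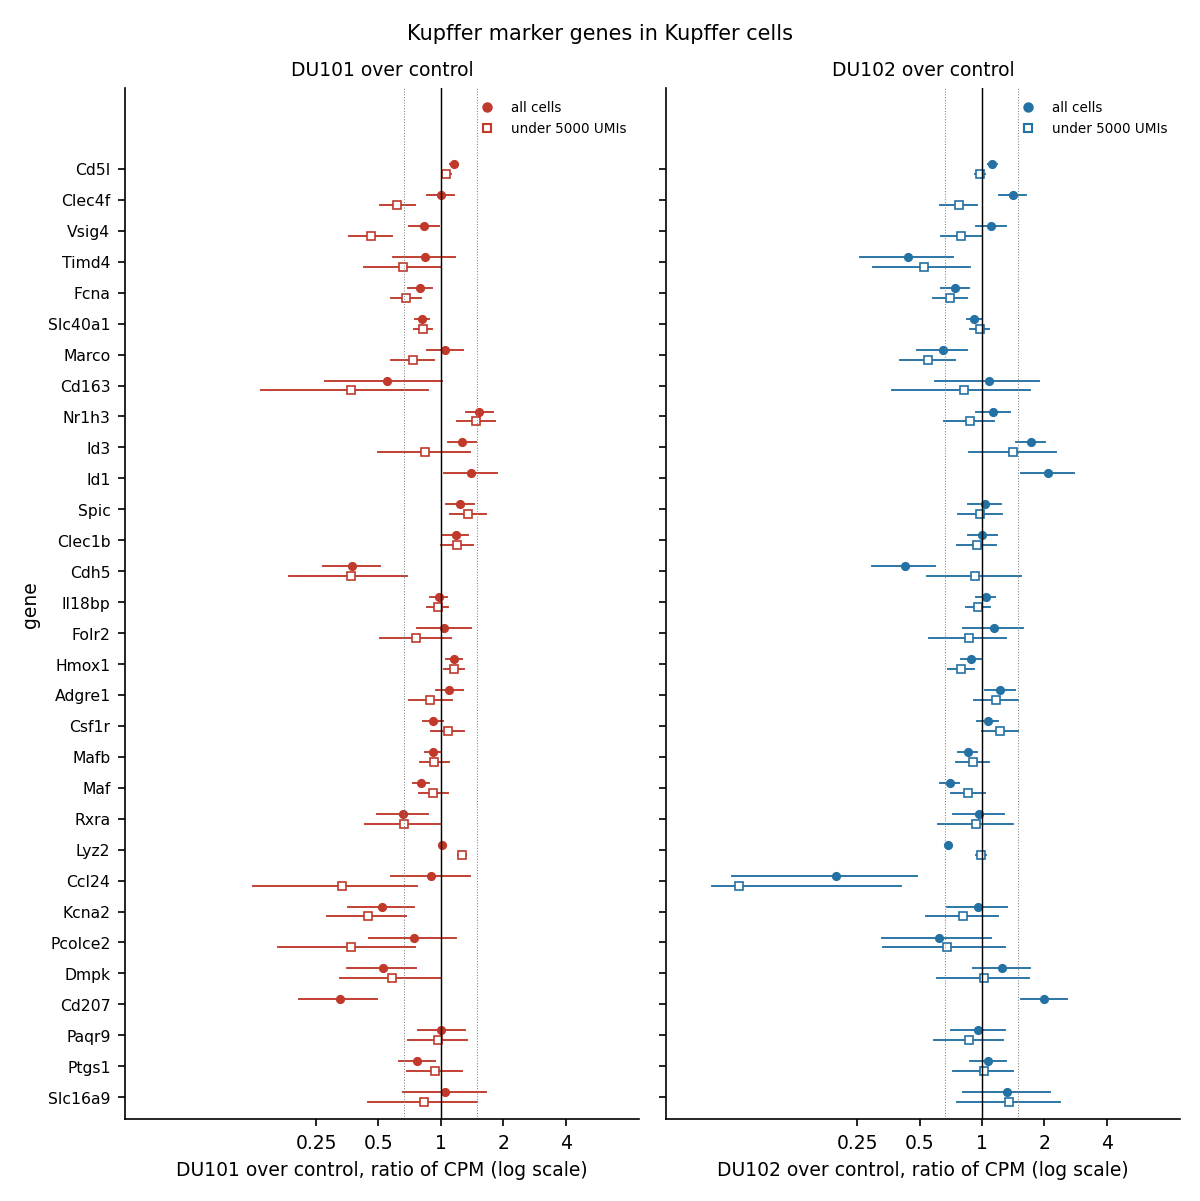
Ratio of CPM (log scale) of each Kupffer marker gene in DU101 over control (left) and DU102 over control (right), filled circles for all Kupffer cells and open squares for cells under 5000 UMIs, with 95% counting intervals; the first 4 genes from the top chose the cells. Nr1h3 lies to the right in DU101 at 1.53, and Marco to the left in DU102 at 0.647.

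Control Kupffer cells with a Timd4 UMI held more Marco and Folr2 than those without. Timd4 helped to choose the cells, so the split is a description. With each cell thinned to 5000 UMIs, 12 of 132 control cells had a Timd4 UMI. These had 317 CPM of Marco, against 23.3 CPM in control cells without Timd4, and 150 against 21.7 CPM of Folr2, a folate receptor of resident macrophages. Thinned to 2000 UMIs, which keeps shallower cells, 25 control cells had Timd4, with 960 against 58.4 CPM of Marco. Vsig4, itself a gene of the choice, was at 567 against 81.7 CPM at 5000 UMIs and 1180 against 181 CPM at 2000 UMIs. In DU101, 3 cells had Timd4 at 5000 UMIs and Marco was at 0 in them, while at 2000 UMIs 8 cells had it, with 1125 CPM of Marco against 28.7 CPM without. In DU102, 0 cells had Timd4 at 5000 UMIs and 3 at 2000 UMIs, too few to describe.

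Many type I interferon-induced genes were higher in DU101 Kupffer cells. Of 30 measured, 16 were called higher and 0 lower in DU101, against 4.48% of all genes higher, and the median log2 ratio was 0.65 beside −0.07 over all genes. In DU102, 0 of 29 were called in either direction and the median was 0.19. Under 5000 UMIs, 9 of 25 were higher and 1, the helicase Ddx60, lower in DU101, with a median of 0.60. In DU102, 1 of 19 was higher at that depth, with a median of 0.37. Below 0.5% Malat1, 9 of 24 were higher in DU101, where 5.2% of all genes were, and 5 of 21 in DU102, where 3.88% of all genes were higher and 2.96% lower. The 5 in DU102 were Isg15, Oasl1, Oasl2, Irf7 and Trim30a, and 0 were lower in either library. Over the alternatives tried, the median stayed between 0.35 and 0.92 in DU101, and between −0.003 and 0.52 in DU102.

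The 4 promoters printed here belong to the genes of this list that were called higher in DU101 at both depths and hold the motif GAAA, then any 2 bases (NN), then GAAA on either strand, which is the core of the interferon-stimulated response element. Each runs from 250 bases before to 50 bases after the start of the gene, 5′ to 3′ on the gene's own strand, from RefSeq on GRCm38.p6. Capitals mark the motif. They lie on the minus strand at chr4:156200769-156201068 (Isg15), the minus strand at chr12:26456403-26456702 (Rsad2), the plus strand at chr19:34583279-34583578 (Ifit3) and the minus strand at chr8:71537423-71537722 (Bst2).
Isg15: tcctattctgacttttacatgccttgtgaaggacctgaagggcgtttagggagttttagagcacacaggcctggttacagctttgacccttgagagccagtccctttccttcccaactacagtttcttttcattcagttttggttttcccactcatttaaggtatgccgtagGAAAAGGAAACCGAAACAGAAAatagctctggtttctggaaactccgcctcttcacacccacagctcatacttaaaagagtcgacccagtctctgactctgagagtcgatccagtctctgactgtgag
Rsad2: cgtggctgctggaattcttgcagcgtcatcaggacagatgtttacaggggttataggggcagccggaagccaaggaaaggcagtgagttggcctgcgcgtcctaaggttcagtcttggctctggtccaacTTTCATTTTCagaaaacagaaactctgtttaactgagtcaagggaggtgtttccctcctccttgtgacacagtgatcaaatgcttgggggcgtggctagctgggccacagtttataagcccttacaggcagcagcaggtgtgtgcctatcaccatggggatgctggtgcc
Ifit3: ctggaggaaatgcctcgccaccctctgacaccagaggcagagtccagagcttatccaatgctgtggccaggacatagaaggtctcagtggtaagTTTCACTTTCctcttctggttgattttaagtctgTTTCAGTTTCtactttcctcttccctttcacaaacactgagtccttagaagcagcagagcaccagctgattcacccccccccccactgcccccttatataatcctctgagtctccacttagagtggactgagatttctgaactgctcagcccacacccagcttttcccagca
Bst2: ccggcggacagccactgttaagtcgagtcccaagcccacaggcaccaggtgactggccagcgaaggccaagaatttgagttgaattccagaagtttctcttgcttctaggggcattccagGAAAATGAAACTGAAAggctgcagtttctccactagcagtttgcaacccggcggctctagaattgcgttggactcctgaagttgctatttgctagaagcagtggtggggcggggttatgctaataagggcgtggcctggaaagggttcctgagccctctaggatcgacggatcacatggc

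Isg15 holds 3 overlapping motifs, Ifit3 and Bst2 hold 2 each and Rsad2 holds 1. Of the 32 genes of the list, 23 have a promoter in the table and 13 of them, 56.5%, hold the motif, as do 3.99% of all 27025 genes. It was found in 7 of 13 promoters of genes called higher in DU101, 53.8%, and in 6 of 10 of the others. A match is a description and not a bound site.

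Isg15, a ubiquitin-like protein, was at 299 CPM in DU101, 118 in DU102 and 98.6 in control, from 400 UMIs in 102 DU101 cells, 109 in 56 DU102 cells and 237 in 102 control cells. It was 3.03-fold higher in DU101 than in control (2.58 to 3.58) and 1.20-fold in DU102 (0.947 to 1.51). Rsad2, the antiviral enzyme viperin, was at 175 CPM in DU101, 53.2 in DU102 and 56.6 in control, which is 3.09-fold in DU101 (2.49 to 3.85). Over all cells DU102 was thus close to control and DU101 above both for these 2 genes. Below 0.5% Malat1, Isg15 was at 233 CPM in DU101, 133 in DU102 and 83.5 in control, and was called higher in DU102 as well. Ifit3, which binds viral RNA complexes, was at 123 CPM in DU101, 68.4 in DU102 and 45.8 in control, 2.70-fold in DU101 (2.11 to 3.46). Bst2, the tether that holds virus particles at the cell surface, was at 505 CPM in DU101, 325 in DU102 and 277 in control, 1.82-fold in DU101 (1.63 to 2.03). Under 5000 UMIs the DU101 ratios were 2.57 for Isg15, 2.16 for Rsad2, 1.84 for Ifit3 and 1.75 for Bst2, all still called.

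The transcription factor Irf7 was called higher in DU101 at both depths. Irf7, which amplifies interferon production, was at 232 CPM in DU101, 177 in DU102 and 118 in control, 1.96-fold in DU101 (1.66 to 2.31). Usp18, which removes Isg15 from proteins, was 2.70-fold and Ifit1 3.05-fold higher in DU101. The C1q macrophages without Kupffer markers showed 12 of 30 genes higher and 0 lower in DU101, where 6.18% of all genes were higher and 8.03% lower, and a median log2 ratio of 0.50. Their ratio for Isg15 was 1.71, and T cells had 231 CPM of Isg15 in DU101, 121 in DU102 and 129 in control. The genes were thus higher in DU101 in other cells too, and whether the size differs between cell types was not tested. In DU101 over DU102, 12 of 29 genes were higher in Kupffer cells and 0 lower, against 6.16% of all genes higher and 5.82% lower.

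**Figure D4:**
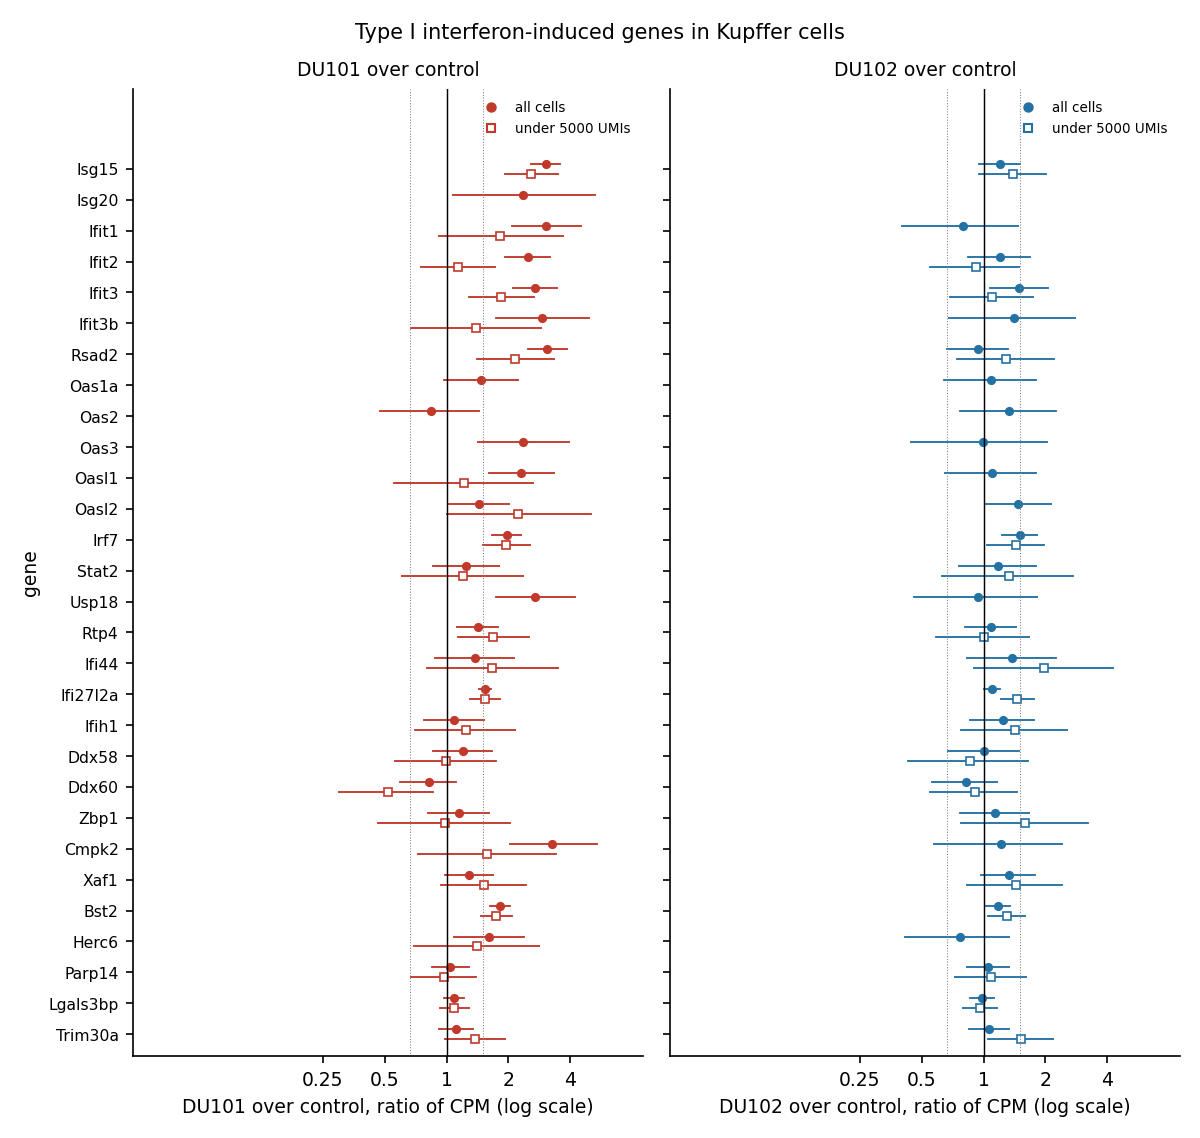
Ratio of CPM (log scale) of the type I interferon-induced genes drawn here by name, in DU101 over control (left) and DU102 over control (right), filled circles for all Kupffer cells and open squares for cells under 5000 UMIs, with 95% counting intervals. In DU101 the genes lie mostly to the right of 1, with Isg15 at 3.03 and Rsad2 at 3.09, and in DU102 they lie around 1.

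Genes induced by interferon gamma were less uniform. In all cells 8 of 24 were called higher and 0 lower in DU101, and 3 of 23 higher and 1 lower in DU102, with medians of 0.20 and −0.08. Under 5000 UMIs, Cxcl10 and Ly6a were the 2 of 17 called higher in DU101. Cxcl10, a chemokine that draws T cells, was at 252 CPM in DU101, 17.4 in DU102 and 66.6 in control, in 38 DU101, 9 DU102 and 38 control cells. It was 3.79-fold higher in DU101 (3.13 to 4.60) and lower in DU102 at 0.261 times (0.146 to 0.437). Under 5000 UMIs it was 2.62-fold in DU101 and 0.856 times in DU102, which was not called. Cd274, the checkpoint ligand PD-L1, was higher in both, at 47.9 CPM in DU101, 49.9 in DU102 and 29.1 in control. Those are 1.64-fold (1.15 to 2.34) and 1.71-fold (1.16 to 2.52). Under 5000 UMIs the DU101 ratio was 1.77 with an interval that spans 1 (0.938 to 3.38).

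Genes of MHC class II, which shows antigen to helper T cells, were higher in DU101 Kupffer cells as sums over all cells. H2-Aa, H2-Ab1, H2-Eb1 and Cd74 were the 4 of 10 called higher, and H2-Eb1 was the 1 of 9 called lower in DU102. H2-Eb1 was at 1466 CPM in DU101, 225 in DU102 and 426 in control, 3.44-fold in DU101 and 0.527 times in DU102, and 1 DU101 cell held 24.6% of its UMIs. Under 5000 UMIs it was 2.28-fold in DU101 (1.83 to 2.85) and 1.21-fold in DU102. Cd74, the chain that guides class II molecules, was at 3751 CPM in DU101, 1519 in DU102 and 2088 in control. Under 5000 UMIs, 3 of 7 class II genes were higher in DU101 and 0 of 7 in DU102. Below 0.5% Malat1, 0 of 7 class II genes were called in DU101, where 5.2% of all genes were higher and 3.61% lower, with a median of 0.09. Above it, 5 of 10 were higher and 0 lower, where 4.71% of all genes were higher and 10.4% lower. H2-Eb1 was at 2115 CPM in DU101, 266 in DU102 and 597 in control there, against 259 CPM in DU101, 161 in DU102 and 199 in control in cells with little Malat1. H2-Eb1 was also 2.42-fold higher in DU101 C1q macrophages. RNA of dendritic cell markers moved in the same order over all cells: the 8 markers summed to 88.3 CPM in DU101, 9.77 in DU102 and 49.5 in control Kupffer cells. All 8 were found in DU101 and control, and Cd209a, Ccr7, Fscn1 and Itgae were at 0 in DU102. The sums were 15.7 CPM in DU101, 2.79 in DU102 and 2.67 in control under 5000 UMIs, and 82.5 CPM in DU101, 67.7 in DU102 and 64.1 in control T cells, and their part in the class II values was not tested.

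Chemokine ratios differed between depths in DU102, and with Malat1 in DU101. In all cells 10 of 18 were called higher and 2 lower in DU101, with a median log2 ratio of 0.74, and 2 higher and 7 lower in DU102. Under 5000 UMIs, 6 of 14 were higher and 3 lower in DU101, with a median of 0.60. In DU102, 4 of 13 were higher and 1 lower at that depth, with a median of 0.30. Below 0.5% Malat1 the DU101 median was −0.07, with 4 of 14 higher and 3 lower. Ccl4, which draws T cells and monocytes, was at 1253 CPM in DU101, 257 in DU102 and 411 in control, 3.05-fold in DU101 (2.81 to 3.30) and 0.626 times in DU102 (0.541 to 0.722). Under 5000 UMIs it was at 311 CPM in DU101, 324 in DU102 and 101 in control, which is 3.07-fold in DU101 (2.32 to 4.09) and 3.2-fold in DU102 (2.37 to 4.33). The direction in DU102 thus turned with depth, as it did for Ccl3, at 0.573 times over all cells and 2.04-fold under 5000 UMIs. Ccl2, which draws monocytes, was at 189 CPM in DU101, 17.4 in DU102 and 108 in control, and under 5000 UMIs it was 3.03-fold higher in DU101. Cxcl2, a neutrophil chemokine, was 2.60-fold higher in DU101, and 1 cell held 46.8% of its DU102 UMIs. Neutrophil marker RNA, with 10 of 10 genes found in each library, was higher in both treated libraries, at 1642 CPM in DU101, 3369 in DU102 and 437 in control Kupffer cells, beside 1254 CPM in DU101, 2011 in DU102 and 269 in control T cells, and its part in these chemokine values was not tested.

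Several scavenger and dying-cell receptors were lower in DU101. Clec4f and Timd4 belong to the list but chose the cells, so they are left out of its counts. Of the other 21 measured, 1 was called higher and 6 lower in DU101, where 7.55% of all genes were lower, with a median log2 ratio of −0.30. Under 5000 UMIs, 0 of 19 were higher and 5 lower, where 3.59% of all genes were, with a median of −0.45 beside 0.06 over all genes. In DU102, 0 were higher and 4 of 21 lower, and 1 of 19, Marco, under 5000 UMIs. Mrc1, the mannose receptor, was at 229 CPM in DU101, 370 in DU102 and 464 in control, in 128 DU101, 120 DU102 and 286 control cells. Its DU101 ratio was 0.494 (0.434 to 0.561) and 0.497 under 5000 UMIs (0.409 to 0.6), while DU102 was at 0.798 and 0.950. It was 0.583 times control in DU101 C1q macrophages as well.

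Axl, a receptor kinase that takes up dying cells, was at 284 CPM in DU101, 410 in DU102 and 378 in control. Its DU101 ratio was 0.749 in all cells and 0.611 under 5000 UMIs (0.516 to 0.722), the second of which was called. Stab1, a scavenger receptor shared with sinusoidal endothelium, was at 59.8 CPM in DU101, 87.9 in DU102 and 146 in control, with DU101 ratios of 0.410 and 0.492. Cd300lf, an inhibitory lipid receptor, was at 59.1 CPM in DU101, 118 in DU102 and 88.6 in control, with DU101 ratios of 0.667 and 0.476. Below 0.5% Malat1 the list held 1 of 19 genes higher, Colec12, and 3 lower in DU101, Mrc1, Stab1 and Mertk, where 3.61% of all genes were lower. Ccr3, a chemokine receptor found 13.5 to 14.6 times as high in Kupffer cells as in C1q macrophages of the same library, was also lower in DU101. It was at 32.2 CPM in DU101, 89.0 in DU102 and 70.3 in control, 0.457 times in DU101 (0.319 to 0.642) and 0.307 times under 5000 UMIs (0.182 to 0.495).

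Of 19 iron and haem genes measured, Slc11a2 and Nfe2l2 were called higher in DU101 and 0 lower. Tfrc, the transferrin receptor, was the 1 called in DU102, where it was lower. Over all genes 4.48% were higher and 7.55% lower in DU101, and 3.76% higher and 6.37% lower in DU102. Hmox1, which breaks down haem, was at 602 CPM in DU101, 460 in DU102 and 519 in control. Nfe2l2, the transcription factor Nrf2, was at 284 CPM in DU101, 199 in DU102 and 167 in control, 1.70-fold in DU101 and 2.01-fold under 5000 UMIs. Of 15 measured oxidative stress genes, 0 were called in either comparison over all cells.

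Lipid genes differed one by one. Of 24 measured, with Cd5l left out because it chose the cells, 2 were called higher and 3 lower in DU101, and 1 higher and 4 lower in DU102. Over all genes 4.48% were higher and 7.55% lower in DU101, and 3.76% higher and 6.37% lower in DU102. Plin2, which coats lipid droplets, was at 617 CPM in DU101, 317 in DU102 and 364 in control, 1.69-fold in DU101 and 1.72-fold under 5000 UMIs. Fabp4, a fatty acid carrier of macrophages and endothelium, was at 436 CPM in DU101, 144 in DU102 and 566 in control, and its DU102 ratio was 0.255 in all cells and 0.561 under 5000 UMIs. Lpl, lipoprotein lipase, was at 581 CPM in DU101, 792 in DU102 and 554 in control, 1.43-fold in DU102 and 1.59-fold under 5000 UMIs (1.41 to 1.8).

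Of 14 complement genes measured, leaving out Vsig4 and the 3 C1q genes that chose the cells, C3, C4b and Cfb, which feed the cascade, were called higher in DU101, and the receptor C5ar2 and the inhibitors Cd55 and Cd59a lower. Under 5000 UMIs, of 9 measured in DU101, C4b and Itgam were called higher and C6 lower. Over all cells C4b was at 157 CPM in DU101, 14.1 in DU102 and 27.9 in control, in 27 DU101, 10 DU102 and 25 control cells. That is 5.63-fold in DU101 (4.26 to 7.53). In DU102, 0 were called higher and 6 lower, and 0 of 8 in either direction under 5000 UMIs. Among 7 Fc receptor genes, 0 were called in DU101.

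Of 21 inflammatory cytokine and NF-kB genes, 7 were called higher and 0 lower in DU101, and 2 higher and 4 lower in DU102. Il1rn, which blocks interleukin 1, was at 59.1 CPM in DU101, 54.3 in DU102 and 22.5 in control, but its DU101 ratio under 5000 UMIs was 0.899 and its DU102 ratio 2.00. Nfkbiz, a nuclear NF-kB regulator, was 4.01-fold higher in DU101 under 5000 UMIs. Heat shock and dissociation genes were called higher in 4 of 23 cases in all DU101 cells and in 10 of 21 under 5000 UMIs, and in 0 of 23 and 7 of 21 in DU102. Hspa1a, a heat shock chaperone, was at 384 CPM in DU101, 167 in DU102 and 92.0 in control under 5000 UMIs, and T cells had 1052 CPM in DU101, 794 in DU102 and 732 in control.

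Of 12 glucocorticoid-responsive genes measured, 4 were called higher and 1 lower in DU101, and 0 higher and 4 lower in DU102. Under 5000 UMIs, 4 of 9 were higher and 1 lower in DU101, and 2 of 8 higher and 1 lower in DU102. Fkbp5, a glucocorticoid-induced chaperone partner, was lower in both treated libraries, at 47.1 CPM in DU101, 55.4 in DU102 and 99.5 in control. Its ratios were 0.474 (0.353 to 0.628) and 0.557 (0.403 to 0.756), and 0.440 and 0.514 under 5000 UMIs. It was lower in C1q macrophages too, at 0.408 times in DU101 and 0.361 times in DU102, and T cells had 47.3 CPM in DU101, 43.3 in DU102 and 80.3 in control. Among 27 lysosome genes 0 were called in DU101 and 1 in DU102. Among 25 cell cycle genes, 1 was higher and 4 lower in DU101, and 7 higher and 3 lower in DU102. The DU102 direction differed with depth and Malat1: under 5000 UMIs 0 of 17 were higher and 4 lower, with a median log2 ratio of −0.52, and below 0.5% Malat1 0 of 22 were higher and 7 lower. Above 0.5% Malat1, 15 of 25 were higher and 2 lower, where 5.19% of all genes were higher and 8.97% lower. Of 16 genes named in tumour macrophages, 3 were called higher and 3 lower in DU101, and 1 higher and 5 lower in DU102. Under 5000 UMIs, 6 of 14 were higher and 1 lower in DU101, and 2 of 13 higher and 0 lower in DU102. At that depth Gpnmb was at 533 CPM in DU101, 416 in DU102 and 240 in control, 2.22-fold and 1.73-fold. In C1q macrophages Gpnmb was 0.684 and 0.598 times control. Ptprc, which encodes CD45, was at 483 CPM in DU101, 595 in DU102 and 444.5 in control, and the oncogene Myc at 30.7 CPM in DU101, 46.7 in DU102 and 25.4 in control, 1.84-fold in DU102 (1.21 to 2.76).

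**Figure D5:**
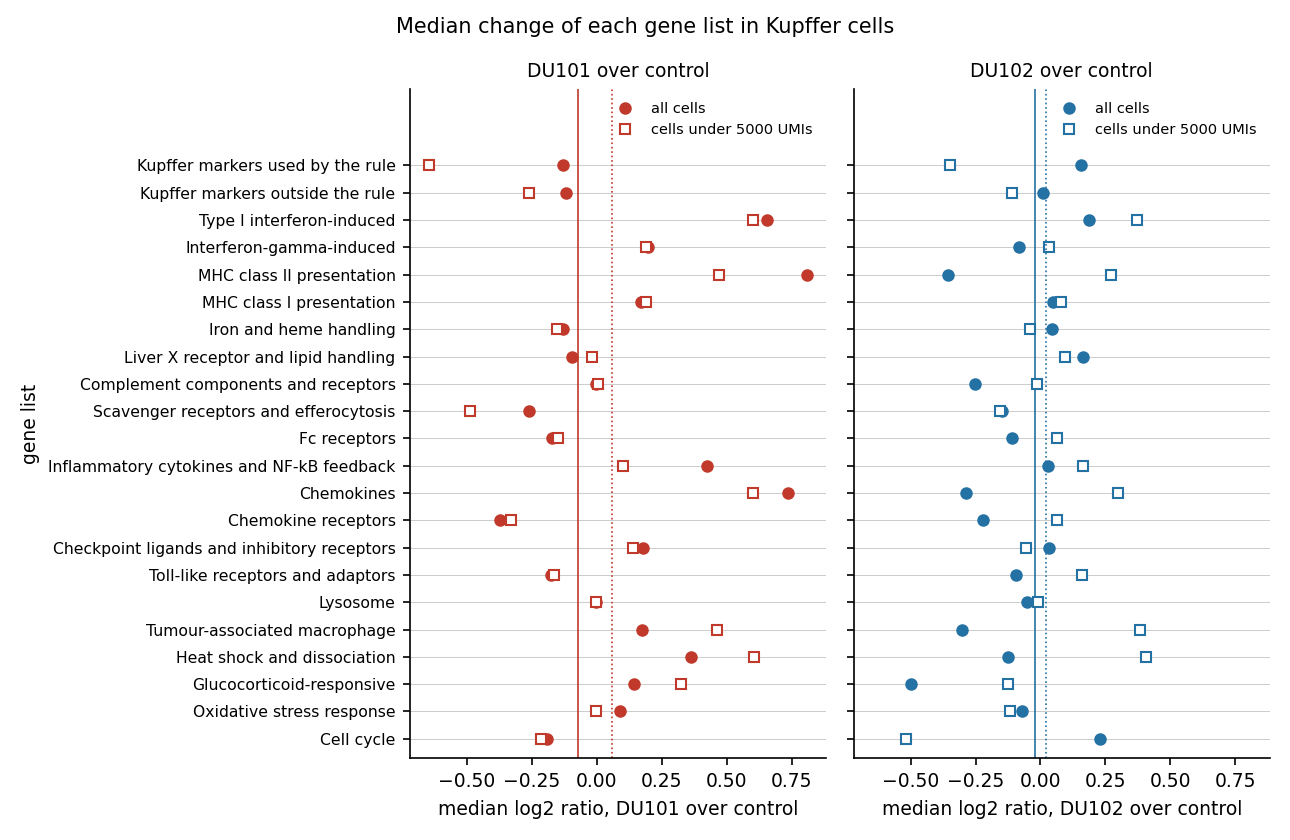
Median log2 ratio of the measured members of each gene list in DU101 over control (left) and DU102 over control (right), filled circles for all Kupffer cells and open squares for cells under 5000 UMIs; vertical lines are the medians over all genes measured, solid for all cells and dotted for cells under 5000 UMIs. Type I interferon-induced genes lie at 0.65 and 0.60 in DU101, and scavenger receptors, drawn with Clec4f and Timd4 among them, at −0.26 and −0.49.

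Several of the largest ratios rested on single cells. Collagen and contractile genes led the ranking in DU101 over control, but 1 DU101 cell held 99.2% of Col1a2, 98.5% of Col1a1, 99.5% of Eln and 96.6% of Acta2 UMIs. The summed stellate and fibroblast markers, of which 6 of 8 were found in DU101, 3 in DU102 and 7 in control, were at 1138 CPM in all DU101 Kupffer cells and 9.84 CPM in those under 5000 UMIs, beside 8.37 in DU102 and 6.67 in control at that depth. In DU102 the granule genes Mpo, Ctsg and Prtn3 led, and 1 cell held 83.0%, 86.0% and 87.7% of their UMIs. The endothelial genes Ptprb, Kdr and Lyve1 were among the 8 lowest in DU101 over control, where the summed endothelial markers were at 195 CPM in DU101, 174 in DU102 and 883 in control, and at 128 CPM in DU101, 257 in DU102 and 187 in control under 5000 UMIs.

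A few genes in DU101 were spread over more cells. Saa3, an acute phase protein of macrophages, had 1530 UMIs in 31 DU101 cells, 44 in 5 DU102 cells and 109 in 13 control cells, 25.2-fold over control (20.8 to 30.9) and 10.4-fold under 5000 UMIs (5.94 to 19.8). It was 4.06-fold higher in DU101 C1q macrophages, and T cells had 97.6 CPM in DU101, 3.97 in DU102 and 3.16 in control. Prg4, a lubricating glycoprotein of body cavity macrophages, had 382 UMIs in 13 DU101 cells, 0 in DU102 and 85 in 1 control cell. Alox15, a lipid-oxidising enzyme also typical of them, had 70 UMIs in 11 DU101 cells, 0 in DU102 and 58 in 1 control cell.

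Mrc1, Ccr3 and Isg15 also differed when the treated libraries were set against each other. Mrc1 was 0.618 times as high in DU101 as in DU102 (0.528 to 0.724), and 0.523 times under 5000 UMIs. Ccr3 was at 0.361 times (0.244 to 0.529), and Isg15 2.53-fold higher (2.04 to 3.15). The chemokine gene Ccl4 was 4.87-fold higher in DU101 over all cells (4.25 to 5.6) and at 0.961 times under 5000 UMIs (0.751 to 1.23).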

How the data were processed

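The deposited matrices hold raw UMI counts of 32285 features, made by the authors. Their headers name Cell Ranger 6.0.0, and the submitters' processing notes give version 2.1.1 and the mm10 build. Libraries followed the 10x 3′ v3 protocol per the labels' protocols. Deposited tables of fold changes by cluster were not used. Barcodes were kept from 200 genes upward and up to a mitochondrial share of 10%, and doublets were kept in (Scrublet called 5 DU101, 1 DU102 and 16 control Kupffer cells).

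UMIs were summed over the cells of a group within each library and scaled to CPM of that group. Ratios have exact conditional Poisson 95% intervals, shares exact Clopper-Pearson ones. Against 0 counts, a floor of 3 counts over the library was used. C1q macrophages passed the same limits with at least 2 C1q UMIs and none of the 4 Kupffer genes, and T cells are kept cells with at least 2 UMIs of Cd3d, Cd3e and Cd3g that passed the same limits on Cd79a, Siglech and S100 genes. Named genes are every Kupffer marker, the 8 highest and 8 lowest per comparison at 50 CPM or more, up to 4 per list, Cd274, Ptprc and Myc, and any needed to say what a list holds. Some genes counted in the lists are not reported here by name. The members and lists were chosen with earlier results of these data known, and 8 of the alternatives after the values were seen. On simulated counts for DU101 over control with 8446 genes, 94.0% of genes set to 2-fold and 100% set to 4-fold were called, and 2.21% of unchanged genes. Those counts were drawn from the same Poisson model that the intervals assume, without variation between cells or libraries. They check the calculation and give no error rate for the calls in these data. Tools were edgeR 4.0.16 and DESeq2 1.42.0 in R 4.3.3, for scaling factors only, and scanpy 1.11.5, scipy 1.17.1, numpy 2.4.6, pandas 2.3.3 and matplotlib 3.10.9 in Python 3.11.15.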

Additional observations from a re-analysis of the deposited data

Results flagged for a closer look

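The 9 genes flagged here had a ratio to control that went one way in Kupffer cells and the other way in C1q macrophages without Kupffer markers. They are not all the genes that did so. Nr1h3, higher in DU101 Kupffer cells, was at 64.3 CPM in DU101 and 93.3 in control C1q macrophages. With 1 library per group the difference between the cell types was not tested. In DU101 over control, the log2 ratio was 6.53 for Acta2, 7.93 for Col1a1, 8.16 for Col1a2 and 8.63 for Eln in Kupffer cells, against −1.03, −1.48, −1.47 and −0.99 in C1q macrophages, and 1 DU101 Kupffer cell held nearly all of these UMIs. Fn1, an extracellular matrix protein, was at 0.91 against −0.62, from 25 DU101, 8 DU102 and 31 control Kupffer cells. Il10, an anti-inflammatory cytokine, was at 2.80 against −0.83, from 31 UMIs in 9 DU101, 4 in 4 DU102 and 8 in 4 control Kupffer cells.

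In DU102 over control, Ccl24 was at −2.34 in Kupffer cells against 2.21 in C1q macrophages, from 5 UMIs in DU102 Kupffer cells and 66 in control ones. Cd55, an inhibitor of complement, was at −1.46 against 0.87, from 15 and 108 UMIs. Klra4, a lectin receptor of NK cells, was at 2.09 against −1.10, from 49 UMIs in 4 DU102 Kupffer cells and 30 in 9 control ones.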

How the results depend on the processing

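No paired analysis was possible because each group has 1 library. In all, 22 alternatives were run for counts of genes and 21 for list medians. Every median of the type I interferon list in DU101 stayed above 0. Below, values are given in the order DU101, DU102, control for the share of Kupffer cells (2.64%, 2.13% and 4.88% as reported), and counts of genes are those called at 1.5-fold.

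The share of Kupffer cells became 2.11%, 1.49% and 3.39% at a mitochondrial limit of 5%, 5.67% in control at 20%, 2.19% in DU101 and 1.83% in DU102 with at least 500 genes, 3.6%, 2.97% and 6.52% with at least 1 marker UMI, and 1.95%, 1.54% and 3.90% with at least 4. It was 1.23%, 1.76% and 3.85% of all kept cells when Kupffer cells with RNA of other lineages were left out. Kupffer cells under 5000 UMIs made up 2.08%, 1.74% and 3.61% of all kept cells. The share was 0.568%, 0.547% and 1.64% with Clec4f, Vsig4 or Timd4 as well. With all cells thinned to 1000 UMIs it was 1.58%, 1.23% and 3.13%, and among control cells with Y-linked RNA 2.53%.

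Genes higher and lower in DU101 over control numbered 374 and 630. Higher ones became 697 with cells weighted alike, 565 with no filter on UMIs, 222 at 100 UMIs and 173 at 2-fold. Lower ones became 1195 with at least 1 marker UMI, 239 without other-lineage RNA, 995 weighted alike, 254 thinned to 5000 UMIs, 289 at 100 UMIs, 328 at 2-fold, 169 under 5000 UMIs, 419 with Clec4f, Vsig4 or Timd4 and 184 below 0.5% Malat1. In DU102 over control they numbered 305 and 516. Higher ones became 610 weighted alike, 181 thinned, 138 at 100 UMIs, 128 at 2-fold, 192 under 5000 UMIs, 189 below 0.5% Malat1 and 174 without the highest cell of each gene. Lower ones became 826 with at least 1 marker UMI, 181 without other-lineage RNA, 938 weighted alike, 197 thinned, 226 at 100 UMIs, 115 under 5000 UMIs and 144 below 0.5% Malat1. In DU101 over DU102 they numbered 416 and 393. Higher ones became 196 without other-lineage RNA, 776 weighted alike, 204 thinned, 202 at 100 UMIs, 250 at 2-fold, 176 under 5000 UMIs and 207 below 0.5% Malat1. Lower ones became 637 weighted alike, 179 thinned, 145 at 100 UMIs, 171 at 2-fold, 149 under 5000 UMIs, 212 with Clec4f, Vsig4 or Timd4 and 154 below 0.5% Malat1. Fewer cells and UMIs give fewer genes by construction.

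The MHC class II median in DU101 (0.81) was 0.53 with at least 1 and 0.48 with at least 4 marker UMIs, 0.50 without other-lineage RNA, 1.25 against control cells with Y-linked RNA, 1.70 with such cells in every library, 0.52 weighted alike, 0.47 under 5000 UMIs, 0.60 with Clec4f, Vsig4 or Timd4, 0.088 below 0.5% Malat1 and 0.64 without the highest cell. In DU102 (−0.36) it was 0.24 with at least 4 marker UMIs, −0.58 without other-lineage RNA, −0.086 against control cells with Y-linked RNA, −0.11 with such cells in every library, −0.023 weighted alike, −0.66 thinned, 0.27 under 5000 UMIs, −0.079 with Clec4f, Vsig4 or Timd4 and 0.084 below 0.5% Malat1. The chemokine median in DU101 (0.74) was 0.21 without other-lineage RNA, 0.36 against control cells with Y-linked RNA, 1.62 thinned and −0.070, a reversal, below 0.5% Malat1. In DU102 (−0.29) it was 0.22 weighted alike, −1.09 thinned and 0.30 under 5000 UMIs. Against control cells with Y-linked RNA, the Kupffer markers outside the choice had medians of 0.35 in DU101 and 0.51 in DU102, beside −0.12 and 0.01.

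In Kupffer cells with Timd4, thinning to 2000 in place of 5000 UMIs gave 1125 CPM of Marco in DU101, against 0, and in control 960 CPM of Marco, against 317, and 1180 CPM of Vsig4, against 567. In DU102 no such cell was left at 5000 UMIs.

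Some single genes reversed. In DU101 over control the log2 ratio of C3 was −0.66 with at least 1 marker UMI, of Chil3 0.88 under 5000 UMIs, of Cxcl9 −2.60 with Clec4f, Vsig4 or Timd4 and of Dusp1 −1.30 below 0.5% Malat1. In DU102 over control Fcgr2b was at 1.01 under 5000 UMIs, Spp1 at 1.44 with Clec4f, Vsig4 or Timd4 and Top2a at −0.85 below 0.5% Malat1. In DU101 over DU102 Mpo was at 1.04 and Prtn3 at 1.47 with at least 4 marker UMIs, at 0.84 and 0.70 thinned, and Top2a at 1.37 below 0.5% Malat1. Of the log2 ratios of named genes, 3705 stayed within their interval, 1417 moved and 12 reversed, where a gene counts once per alternative. The cause of these shifts was not tested. Depth limits most single genes: the median Kupffer cell holds 1687 to 2320.5 UMIs, so a gene not found in a cell may still be expressed there.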

Other observations

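MHC class I genes, which present antigen to CD8 T cells, were called in 0 of 17 cases in either direction in DU101 Kupffer cells, where 4.48% of all genes were called higher and 7.55% lower. Of 15 checkpoint ligands and inhibitory receptors measured in DU101, leaving out Vsig4, which chose the cells, Cd274, Lilrb4a, Tnfsf9 and Arg1 were higher and Lilra5 lower. Arg1, which degrades arginine, was at 108 CPM in 14 DU101 cells, 0 in DU102 and 33.3 CPM in 10 control cells. Gdf15, a stress-induced cytokine, was at 361 CPM in DU101, 86.8 in DU102 and 95.7 in control, 3.77-fold higher in DU101 over all cells and 2.01-fold under 5000 UMIs. Lars2, the mitochondrial leucine tRNA ligase, was at 941 CPM in DU101, 1548 in DU102 and 2114 in control, beside 556, 1409 and 1827 CPM in T cells of the same libraries.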
